A study of Homo sapiens with 12 samples.

Results

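The TP63 locus was taken as the stretch of chromosome 3 from 189300000 to 189650000 (hg19, as are all peak positions here), and its members were all deposited H3K27ac peaks that overlapped this window by at least 1 bp. There were 57 such peaks of 190767 in the 6 peak lists, and they merged into 24 regions of the 58994 regions of the series. The peaks came from 3 lines of human pancreatic cancer cells in ordinary culture without any treatment: BxPC3, Panc327 and SUIT2. Each line had 2 ChIP libraries made with an H3K27ac antibody, and 2 inputs, which entered only through the local background of the peak caller. The lists held 27776 to 38335 peaks per library. The labels do not say whether the replicates came from separate cultures, so the spread between them may be technical. The Panc327 replicates were less alike than those of the other lines: the bases under peaks in both replicates made up 0.519 of those in either for Panc327, 0.814 for BxPC3 and 0.868 for SUIT2, over the genome.

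TP63 encodes p63, a transcription factor of the p53 family that maintains the basal cells of stratified epithelia. The gene is read from a long-isoform start, which gives TA forms with an N-terminal activation domain, and from an internal short-isoform start, which gives delta-N forms that lack it. Delta-N forms dominate in basal and squamous cells, and in pancreatic cancer they mark the squamous, or basal-like, subtype. H3K27ac, an acetylation of histone H3, lies at active promoters and enhancers, so the peaks show which parts of the gene carry the active mark in each line.

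The gene lies on the plus strand, with the long start at about 189349200, the short start near 189507000 and the gene end at about 189615100. These are approximate positions given with the window, and no hg19 annotation was used, so exons and introns are not named. In RefSeq (GRCh38.p14) the start that has a promoter entry lies 265888 bp before the gene end, against 265900 bp between the long start and the gene end used here. RefSeq lets the gene begin a further 34.6 kb upstream of that start.

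The RefSeq promoter of TP63 is shown because it belongs to the long start, where the peak lists were nearly empty. It covers chr3:189631139-189631438 of GRCh38.p14, plus strand, 250 bases before to 50 bases after the start. Capitals mark matches to CCAAT and TATAAA on either strand, which do not overlap each other.
TP63 promoter: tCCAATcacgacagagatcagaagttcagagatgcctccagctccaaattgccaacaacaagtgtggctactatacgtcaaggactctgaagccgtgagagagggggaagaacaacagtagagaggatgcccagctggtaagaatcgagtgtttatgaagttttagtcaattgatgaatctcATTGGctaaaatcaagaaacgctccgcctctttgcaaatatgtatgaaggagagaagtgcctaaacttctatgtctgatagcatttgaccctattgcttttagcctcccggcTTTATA

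The stretch held CCAAT once on each strand and TATAAA once on the minus strand. The TATAAA match formed the very end of the stretch, so it lay after the start and not before it. Of 35116 RefSeq promoters of the same length, 34.6% held CCAAT and 11.5% held TATAAA. The letters GGGCGG, a GC box, were not in this window on either strand, while 45.0% of the promoters held them. The AP-1 element TGANTCA was not in it either, and 7.71% of the promoters had one. The core of p53-family response elements was searched only as CATG, which was also not in it and which 54.9% of the promoters held. Other forms of that core were not searched. G and C made up 43.7% of its bases, against a median of 58.7% over all promoters.

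The gene also hosts a miRNA, shown because it lies inside the transcribed unit on the same strand. The MIR944 hairpin begins 199 kb after the long start in GRCh38.p14, and its position was not carried over to hg19. In the mature RNA, at chr3:189829975-189829996, capitals mark the seed, bases 2 to 8.
hsa-miR-944: aAAUUAUUguacaucggaugag

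The 3 lines carried H3K27ac on different parts of TP63. Both BxPC3 libraries had a strong peak over the short-isoform start and a chain of peaks from there to beyond the gene end. Neither SUIT2 library had a peak from the short start to the end of the window, and both had a single strong peak, with summits at -16.47 and -16.42 kb from it. The Panc327 libraries differed from each other: replicate 2 had the BxPC3 pattern and more, and replicate 1 had 4 narrow peaks, all inside the gene and at least 34.9 kb after the short start. No BxPC3 or Panc327 library had a peak within 2 kb of the long start.

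**Figure D1:**
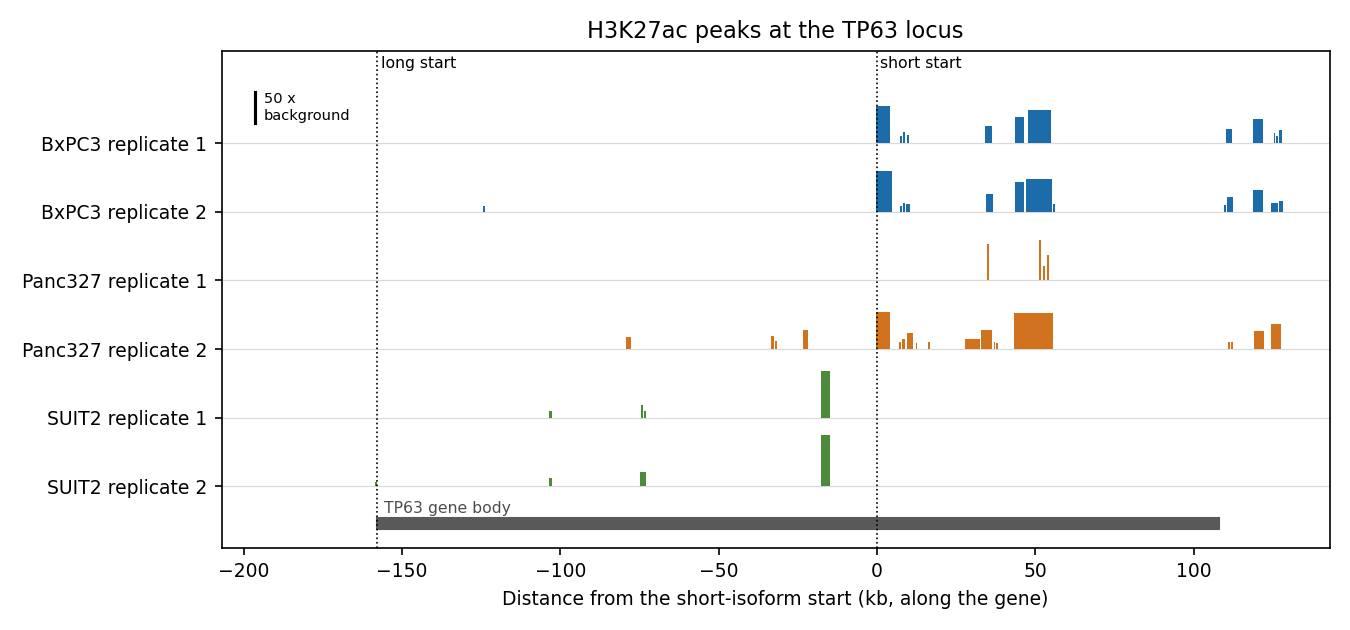
Peaks of the TP63 window in the 6 H3K27ac libraries, drawn to scale against the distance in kb from the short-isoform start (x axis); each box is a peak, its height the summit pile-up over the genome-wide background (scale bar, 50 times), and the grey bar is the gene body. The BxPC3 and Panc327 replicate 2 boxes lie mostly from 0 to 128 kb, the Panc327 replicate 1 boxes from 34.9 to 54.3 kb, and the SUIT2 boxes all before 0.

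BxPC3 replicates 1 and 2 had 12 and 14 peaks in the window, Panc327 replicates 1 and 2 had 4 and 19, and SUIT2 replicates 1 and 2 had 4 each. The BxPC3 peaks covered 25.9 and 30.3 kb, the Panc327 peaks 2.19 and 41.4 kb, and the SUIT2 peaks 4.88 and 5.63 kb. Panc327 replicate 2 thus had the most peaks and the most covered bases, and replicate 1 of the same line the fewest covered bases. The widest peak spanned 7296 and 8241 bp in the BxPC3 replicates, 643 and 12549 bp in Panc327 replicates 1 and 2, and 2825 and 2783 bp in the SUIT2 replicates. Of the peaks in the window, the other replicate of the line also called 12 and 11 for BxPC3, 4 and 2 for Panc327 replicates 1 and 2, and 4 and 3 for SUIT2. Over the whole lists, the other replicate also called 96.5 and 83.2% of the peaks of BxPC3 replicates 1 and 2. The shares were 80.5 and 71.7% for Panc327 replicates 1 and 2, and 95.5 and 89.4% for SUIT2.

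Covered length averaged 28.1 ± 3.16 kb in BxPC3, 21.8 ± 27.7 kb in Panc327 and 5.26 ± 0.531 kb in SUIT2 (SD, n = 2). The BxPC3 and SUIT2 libraries did not overlap, while the Panc327 pair spanned the range of both. BxPC3 exceeded the other 4 libraries by 14.6 kb on average (exact permutation test, two-sided p = 0.4), Panc327 by 5.13 kb (exact p = 0.667), and SUIT2 stood at -19.7 kb against them (exact p = 0.333). With peak numbers and the share of each list's covered bases there were 9 such tests, with Benjamini-Hochberg adjusted exact p-values from 0.6 to 0.667. The smallest unadjusted p that 2 libraries against 4 allow is 0.0667, so none could pass 0.05. Without Panc327 replicate 2 the BxPC3 excess was 23.8 kb, without Panc327 replicate 1 it was 10.8 kb, and over the gene body alone it was 8.39 kb. The Panc327 difference was -14.5 kb without its replicate 2 and 24.7 kb without its replicate 1.

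The same order held after allowing for the length of the lists. Of all covered bases of a list, the window held 0.0531 and 0.0555% for the BxPC3 replicates, 0.00644 and 0.0894% for Panc327 replicates 1 and 2, and 0.00812 and 0.00889% for the SUIT2 replicates. Among 8675 stretches of the same length tiled over the genome, 3.93 and 3.24% had as many covered bases or more in the BxPC3 lists. For Panc327 replicates 1 and 2 the shares were 38.2 and 0.957%, and for SUIT2 38.3 and 36.6%. The 8675 stretches include those without any peak, 2767 to 3902 per list, which lowers all these shares. The TP63 window was therefore among the most broadly marked stretches in Panc327 replicate 2 and in BxPC3, and was not in the other 3 libraries.

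The short-isoform start, where delta-N transcripts begin, was covered in both BxPC3 libraries by the peak that stood highest of their peaks in the window. Replicate 1 had it at 189506809 to 189511207 and replicate 2 at 189506665 to 189511652, and the summits were 67 bp apart, 2.07 and 2.13 kb after the short start. The deposited fold over local background, the authors' value from the peak caller, was 31.9 in replicate 1 and 40.2 in replicate 2. Ranked by −log10 q, the peak stood at percentiles 79.4 and 82.7 of those lists.

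In Panc327 replicate 2 the short start was covered by a peak from 189506765 to 189510984 with a fold of 22.4, at percentile 95.7 of the list. Its start lay between those of the BxPC3 peaks, and its summit was 547 and 614 bp from those of BxPC3 replicates 1 and 2. Panc327 replicate 1 had no peak there: its nearest peaks ended 396 kb before the short start and began 34.9 kb after it. Of the 1262 peaks of Panc327 replicate 2 with at least this −log10 q, 99.8% were also called in replicate 1, and the peak at the short start was 1 of only 3 that were not. In SUIT2 the nearest peaks ended 14.9 kb before the short start in both libraries and began 147 kb after it.

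The read pile-up at a summit was recovered from the peak's deposited fold and p-value and set over the genome-wide background of its library. This allows for depth but not for differences in ChIP efficiency, and it rests on the usual formulas of the peak caller. On that scale the short-start peak reached 61.7 and 67.4 times the background in BxPC3 replicates 1 and 2, from 161 and 245 reads. It reached 60.3 times in Panc327 replicate 2, from 172 reads. In Panc327 replicate 1 a pile-up of 22 reads, or 15.1 times the background, would have reached the lowest −log10 p of its list at the median background of its peaks in the window. A mark of that height or more was thus not detected at the short start in replicate 1, as far as its background there was like that of its called peaks.

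Beyond the short-start peak, 3 small regions followed between 7.0 and 11.4 kb, 698, 1019 and 2158 bp wide, and were called in both BxPC3 libraries and in Panc327 replicate 2. Their pile-ups were low beside the short-start peak, at 11.9, 18.8 and 13.0 times the background in BxPC3 replicate 1 and 9.63, 15.1 and 12.7 times in BxPC3 replicate 2. In Panc327 replicate 2 they had 12.3, 16.5 and 27 times, so the third was higher there than in BxPC3. Over local background the third had a fold of 12.5 in Panc327 replicate 2 and of 8.96 and 9.19 in BxPC3 replicates 1 and 2.

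**Figure D2:**
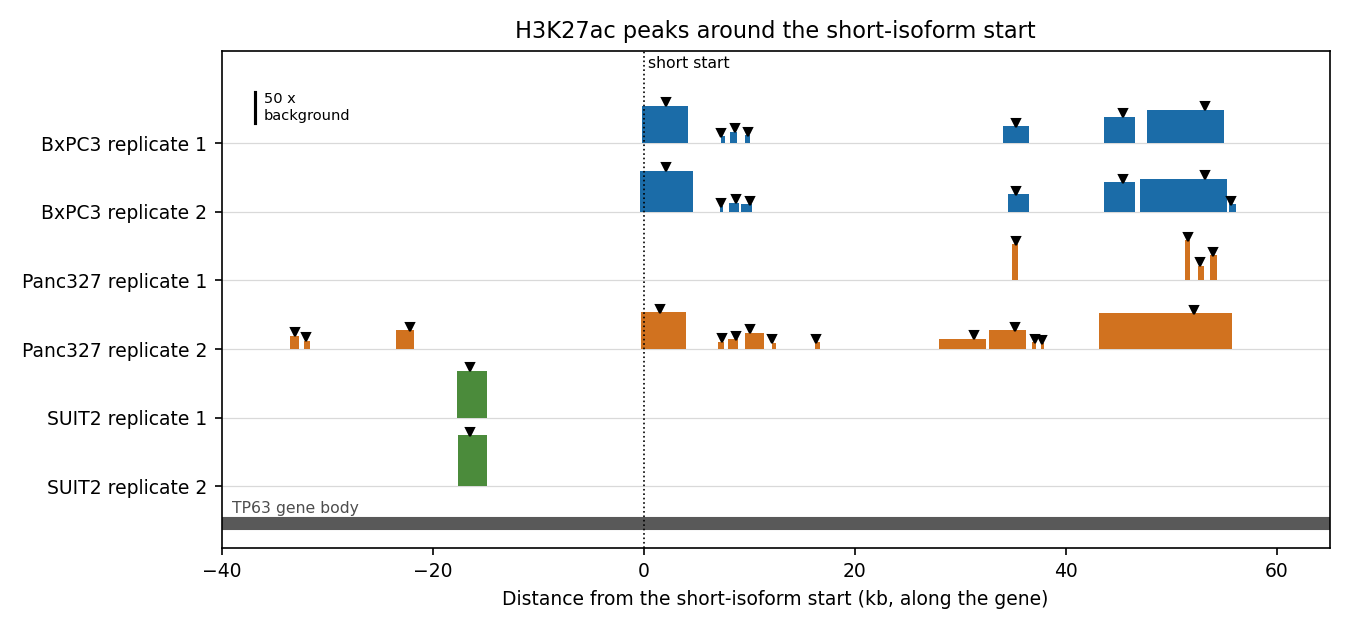
Peaks from 40 kb before to 65 kb after the short-isoform start (x axis, kb) in the 6 libraries, with box heights as summit pile-up over the genome-wide background and triangles at the summits. The boxes at 0 reach 61.7, 67.4 and 60.3 times the background in BxPC3 replicates 1 and 2 and Panc327 replicate 2, and the SUIT2 boxes before it reach 76.9 and 83.1 times.

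Inside the gene after the short start, 2 regions were called in both BxPC3 and both Panc327 libraries, and they were the only regions of the window shared by 4 libraries. The broader, from 189550167 to 189563123, was 12957 bp wide and held the most covered bases of any region in the window. BxPC3 covered 10255 and 11769 bp of it with 2 and 3 peaks in replicates 1 and 2. Panc327 replicate 1 covered 1635 bp with 3 peaks and replicate 2 covered 12549 bp with a single peak, which was the widest peak of the window and at percentile 99.9 of its list by width.

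The highest pile-up in this broad region was 54.8 and 54.2 times the genome-wide background in BxPC3 replicates 1 and 2, and 65.8 and 58.5 times in Panc327 replicates 1 and 2. At the peaks with these pile-ups, the deposited folds over local background were 15.5 and 38.4 in BxPC3, and 23.6 and 25.7 in Panc327. The highest fold of BxPC3 replicate 1 in the region, 29.0, belonged to its other peak, with a pile-up of 43.3 times. Panc327 replicate 1 was thus the highest of the 4 on the genome-wide scale but not on the local scale. It also covered the fewest bases. The other shared region, from 189539710 to 189543484, had its summits within 105 bp of each other in the 4 libraries. There the pile-up was 28.0 and 29.2 times the background in BxPC3, and 59.7 and 31.2 times in Panc327 replicates 1 and 2. Over local background the folds were 18.9 and 20.8 in BxPC3, and 18.8 and 7.56 in Panc327 replicates 1 and 2, so the lead of Panc327 replicate 1 was seen on the genome-wide scale alone. Its peak was 560 bp wide, and that of replicate 2 was 3482 bp.

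After the gene end, BxPC3 and Panc327 replicate 2 shared 3 further regions 110 to 128 kb beyond the short start. The region from 189625612 to 189629389 had folds of 19.4 and 25.2 in BxPC3 replicates 1 and 2 and 12.1 in Panc327 replicate 2, with summits within 61 bp. Its pile-up was 39.1 and 35.5 times the genome-wide background in the BxPC3 libraries and 29.8 times in Panc327 replicate 2. In the region from 189631289 to 189635157 the highest pile-up was 22.2 and 18.2 times the background in BxPC3 and 41.7 times in Panc327 replicate 2. The folds over local background at those summits were 13.7 and 13.1 in BxPC3 and 13.4 in Panc327 replicate 2. However, the Panc327 summit lay 1549 and 1387 bp from those of BxPC3 replicates 1 and 2. The BxPC3 peaks nearest to it, with summits at 189633176 and 189633181, had folds of 5.01 and 10.4. Their pile-ups were 12.3 and 14.3 times. The third, from 189617184 to 189619312, was higher in BxPC3, at 24.1 and 24.2 times, against 11.6 times in Panc327 replicate 2, with folds of 16.1 and 17.3 against 4.97. Panc327 replicate 1 and both SUIT2 libraries had no peak after the gene end within the window.

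SUIT2 carried all but 1 of its peaks in the stretch between the starts. The strongest spanned 189489324 to 189492148 in replicate 1, with nearly the same edges in replicate 2, and had folds of 59.2 and 55.7 at percentiles 76.7 and 79.3 of the lists. Its pile-up was 76.9 and 83.1 times the background, from 253 and 300 reads, the highest of all 57 peaks, and the summits were 49 bp apart. No BxPC3 or Panc327 library called any base of it. The Panc327 replicate 2 peak closest before it, from 189483497 to 189485218, had a pile-up of 30.8 times the background.

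The other regions that both SUIT2 libraries called lay 103 and 74 kb before the short start. The region from 189403546 to 189404369 had a pile-up of 11.2 and 12.7 times the background in replicates 1 and 2, and that from 189432294 to 189433934 had 21.0 and 23.3 times. Both were low beside the strong peak nearer to the short start. A further peak, from 189348349 to 189348763, ended 0.437 kb before the long start and was called in SUIT2 replicate 2 alone. It had 27 reads and a fold of 6.07, at percentile 7.6 of its list, and was the sole peak within 2 kb of the long start in the 6 libraries.

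By segment, the bases from the short start to the gene end carried most of the mark in BxPC3, 18.5 and 20.7 kb in replicates 1 and 2, and in Panc327 replicate 2, 29.4 kb. Panc327 replicate 1 had 2.19 kb there, which was all of its covered length, and SUIT2 had 0. Between the starts the order was different, with 0.191 and 0.691 kb in BxPC3, 0 and 4.85 kb in Panc327 replicates 1 and 2, and 4.88 and 5.22 kb in SUIT2. SUIT2 and BxPC3 did not overlap in either segment. The bases after the gene end held 7.17 and 8.95 kb in BxPC3, 0 and 7.18 kb in Panc327, and 0 in SUIT2.

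**Figure D3:**
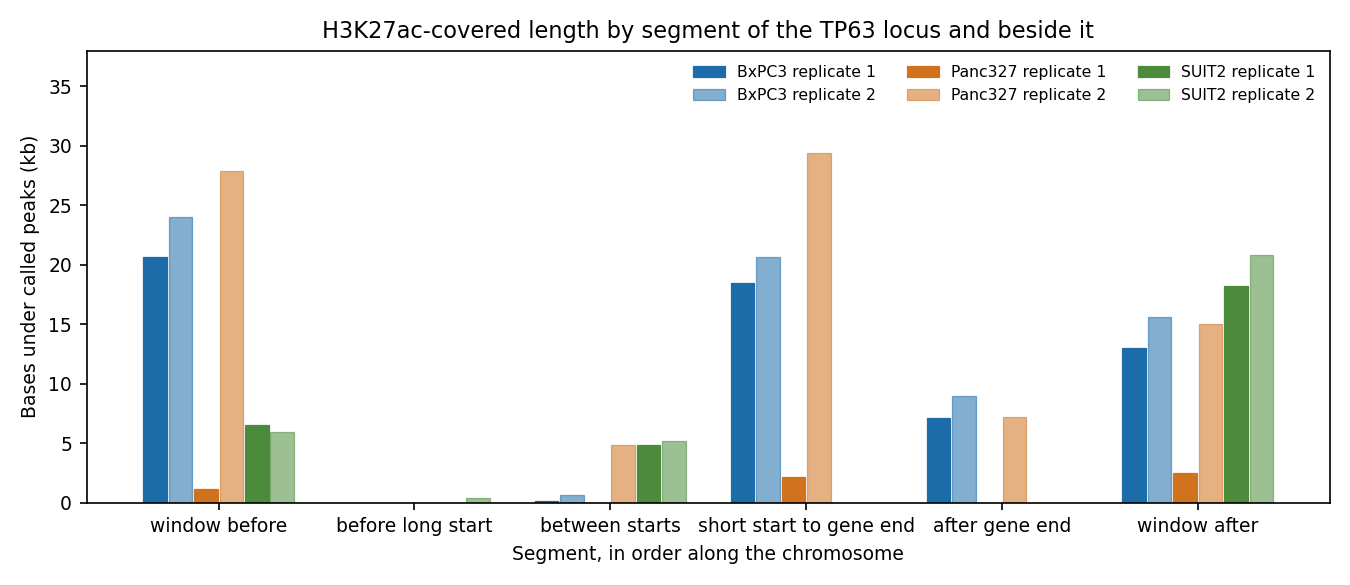
Bases under called peaks (y axis, kb) in each of the 6 libraries for the 4 segments of the TP63 window and for the stretches of the same length directly before and after it (x axis); each bar is 1 library. From the short start to the gene end the bars reach 18.5 and 20.7 kb in BxPC3 and 29.4 kb in Panc327 replicate 2, against 2.19 kb in Panc327 replicate 1 and 0 in SUIT2.

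The difference between the Panc327 libraries did not stop at the gene. In the stretch of the same length directly before the window, BxPC3 had 20.7 and 24.0 kb under peaks, Panc327 replicates 1 and 2 had 1.13 and 27.9 kb, and SUIT2 had 6.54 and 5.98 kb. In the stretch directly after it the BxPC3 replicates had 12 and 14 peaks, Panc327 replicates 1 and 2 had 2 and 13, and the SUIT2 replicates had 18 and 19. SUIT2 thus had the most peaks of the lines after the TP63 window, and Panc327 replicate 1 the fewest covered bases of the 6 libraries in all 3 stretches.

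Most BxPC3 regions of the locus recurred in Panc327 replicate 2. Of the 24 regions, 9 were called in both BxPC3 libraries (49.7% of all regions of the series were), 2 in both Panc327 libraries (33.7%) and 3 in both SUIT2 libraries (45.6%). Panc327 replicate 2 called all 9 of the BxPC3 regions, where it called 33.1% of those 11926 regions of the series that were called in both replicates of BxPC3 and in neither of SUIT2. Panc327 replicate 1 called 2 of the 9, and 21.8% over the series. The pattern of both BxPC3 libraries with Panc327 replicate 2 and no other library was found in 7 of the 24 regions and in 2.87% of all regions. The 9 regions are neighbours in 1 locus and are not independent of each other.

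None of the 24 regions was called in both BxPC3 libraries and no other library, a class that held 12.9% of all regions, and 0 were called in both Panc327 libraries and no other, against 5.79%. Regions of SUIT2 alone numbered 3 of the 24, a share near the 13.0% of all regions in that class. Those 3 were all the regions of the window called in both SUIT2 libraries. Over the series, 7662 of the 26908 regions called in both SUIT2 libraries were of SUIT2 alone. The absence of BxPC3-alone regions rested on Panc327 replicate 2. Without that library the peaks were merged anew, some regions split, and 9 of the resulting regions were of BxPC3 alone. They are not the same as the 9 regions called in both BxPC3 libraries above, of which Panc327 replicate 1 also called 2. The rest of the window comprised 9 regions of Panc327 replicate 2 alone, 2 of BxPC3 replicate 2 alone and the SUIT2 replicate 2 peak near the long start.

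In covered bases, Panc327 replicate 2 shared 22.9 kb with BxPC3 replicate 1 and 25.4 kb with BxPC3 replicate 2. That was 88.6 and 83.7% of the BxPC3 bases and 55.3 and 61.3% of those of Panc327 replicate 2. The Panc327 replicates shared 2.19 kb, which was 100% of replicate 1 and 5.3% of replicate 2. The Jaccard index, the bases in both lists over those in either, was 0.516 and 0.548 for Panc327 replicate 2 with BxPC3 replicates 1 and 2, and 0.053 for the Panc327 pair. Genome-wide the order was the other way round, with 0.456 and 0.449 against 0.519 for the Panc327 pair. BxPC3 and Panc327 shared no base with SUIT2 in the window, while genome-wide the index of BxPC3 with SUIT2 was 0.385 to 0.399. In the window the replicates reached 0.789 in BxPC3 and 0.842 in SUIT2.

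The Panc327 libraries stood apart over the series as well: of those same 11926 regions, Panc327 called 1695 in replicate 2 alone and 348 in replicate 1 alone. In the window, 17 of the 19 peaks of replicate 2 were not called in replicate 1. Over the genome, the Jaccard index with BxPC3 replicates 1 and 2 was 0.456 and 0.449 for Panc327 replicate 2 and 0.362 and 0.346 for Panc327 replicate 1. With SUIT2 replicates 1 and 2 it was 0.344 and 0.338 for Panc327 replicate 2 and 0.287 and 0.280 for replicate 1. Whether a mix-up of libraries or a mixture of chromatin had a part in the BxPC3 pattern of Panc327 replicate 2 was not tested. Of the 17 peaks, 9 had pile-ups above 15.1 times the genome-wide background. The 9 peaks of replicate 2 that no other library called had pile-ups of 9.81 to 30.8 times the background, and 4 of them lay between the starts. The 10 peaks in regions of both BxPC3 libraries had 11.6 to 60.3 times. The genome-wide background, which follows depth, was 1.46 and 2.85 reads in Panc327 replicates 1 and 2, and its part in the difference was not tested.

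The background drawn from the input was raised at TP63 in both Panc327 libraries. Behind the peaks of the window it had a median of 2.62 and 2.14 times the genome-wide level in Panc327 replicates 1 and 2, against 1.16 and 1.0 times for BxPC3 and 1.57 and 1.2 times for SUIT2. No Panc327 peak had a background under 1.83 times, and all 4 peaks of replicate 1 were at 2.14 times or more. The peaks within 1 Mb on either side had medians of 2.04 and 2.12 times for Panc327, 1.08 and 1.0 times for BxPC3, and 1.25 and 1.18 times for SUIT2. The median over the whole list was 1.26 and 1.34 times in Panc327. The value of Panc327 replicate 1 in the window rested on its 4 peaks, none of them at the short start. The part of the raised background in the peak numbers was not tested.

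**Figure D4:**
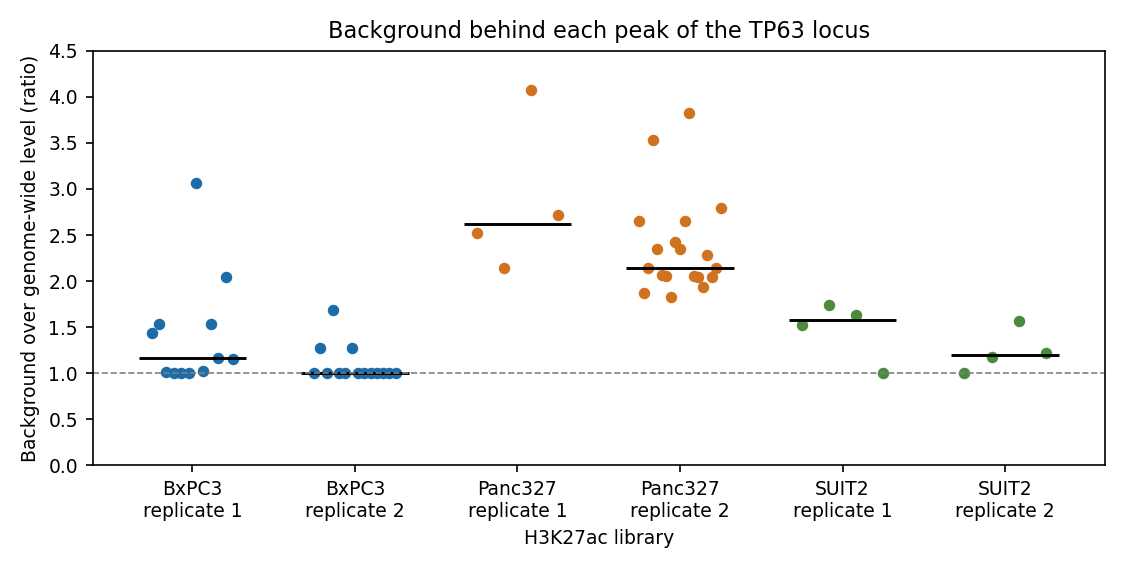
Local background behind each peak of the TP63 window over the genome-wide level of its library (y axis, ratio), by H3K27ac library (x axis); each point is a peak, black lines are medians and the dashed line marks the genome-wide level. The Panc327 points all lie at 1.83 or above, with medians of 2.62 and 2.14, and the medians of the other libraries lie between 1.0 and 1.57.

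Of 8673 other stretches of the same length, those most like the TP63 window in covered length over the 6 libraries (Euclidean distance of log2 kb with 1 kb added) lay on chromosomes 3, 2, 14, 15 and 18. The nearest, on chromosome 3 from 112350322 to 112700322, had a distance of 1.33. It held 23.4 and 24.7 kb in BxPC3, 1.48 and 18.4 kb in Panc327 replicates 1 and 2, and 6.93 and 7.13 kb in SUIT2. In all 5, Panc327 replicate 2 covered more than replicate 1, with 18.4 to 38.3 kb against 1.42 to 5.04 kb. The 5 were picked by covered length in these same libraries, so this difference followed from the choice.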

How the data were processed

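Each H3K27ac library had its own deposited narrowPeak list, so peaks were called per library. The submitters' processing notes name hg19, MACS2, Bowtie (1.1.1) and bcl2fastq (1.8.4). Settings of MACS2 are not given in the sources used here. The deposited fold of a peak is the authors' ratio of pile-up to local background. The deposited −log10 p and −log10 q are the authors' peak-caller values, and they rank peaks only within a list. The deposited score, 10 times the −log10 p without decimals for all but 1 peak, was not used. The deposited summit offset, a plain distance in bases, gave the summits.

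Peaks on chromosomes 1 to 22 and X that touched were merged into regions. Pile-up and background were recovered by solving fold and −log10 p for whole reads, assuming the usual MACS2 formulas. Within a tolerance of 0.001, 99.8 to 100% of each list could be solved. For BxPC3 a fitted scale, 0.752 in replicate 1 and 0.652 in replicate 2, entered the pile-up. The genome-wide background was 1.46 to 3.61 reads per library. Depth was otherwise unknown. Code was tested on simulated data.

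The members, lists and tests were chosen with earlier results of these data known. Regions named are the 6 with most covered bases, those within 2 kb of a start and those called in both Panc327 or both SUIT2 libraries; others named were chosen after their values were seen. Other genes of the p63 programme were not analysed here, since no hg19 annotation was used. Alternatives were a −log10 q of at least 20, 27776 peaks from each list, the gene body alone, stricter overlaps, merging over 1 kb, a replicate block and leaving out each library. The work used matplotlib 3.10.9, scipy 1.17.1, numpy 2.4.6 and pandas 2.3.3 under Python 3.11.15.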

Additional observations from a re-analysis of the deposited data

How the results depend on the processing

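Every difference in covered length, peak number and covered share kept its direction under a −log10 q of at least 20, an equal number of peaks, the gene body alone and the stricter overlap with the window. The Panc327 differences rested on replicate 2. Leaving out 1 library at a time, they ranged from -14.5 to 24.7 kb in covered length, from -4.5 to 10.5 in peak number and from -0.0250 to 0.0580 percentage points in share, and without Panc327 replicate 2 they were -14.5 kb, -4.5 peaks and -0.0250 points. BxPC3-alone regions, 0 in the main count, numbered 1 with a −log10 q of at least 20, 1 under the demand that peaks span 50% or more of their region, and 0 to 9 with 1 library left out. Panc327-alone regions numbered 0 to 9 with 1 library left out, and 9 without Panc327 replicate 1. SUIT2-alone regions numbered 2 with a −log10 q of at least 20, and 3 or 4 under the other alternatives. Where a line's own library was left out, its count could rise because a single list then sufficed.

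The overlap of the lists showed little pairing by replicate number, though such averages cannot exclude a shared batch. Between lines, the genome-wide Jaccard index averaged 0.370 for equal numbers and 0.368 for unequal ones. With lines permuted within the replicate block, the BxPC3 difference in covered length was 14.6 kb as before, and the exact permutation p-values ranged from 0.333 to 0.667, where 0.111 is the smallest possible.

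The lowest −log10 p in these lists was 10, and the mark below that level was not measured. The peak lists give no signal between peaks, and library depth is known only through the genome-wide background. The starts are approximate, so distances to them are too. With 2 libraries a line, and a Panc327 pair that differed at this locus, no value of Panc327 as a line is firm.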
